A study of Homo sapiens with 6 samples.

Results

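The genes described are 9 components of Notch signalling: the receptors NOTCH1, NOTCH2 and NOTCH3, the ligands DLL3, DLK1 and JAG1, and the transcription factors HES1, HES6 and HEY1. They were taken by gene symbol, and all 9 were found among the 26372 genes of the deposited table. Polyadenylated RNA was sequenced from a cultured neuroblastoma line of human origin, BE(2)-M17, in 3 libraries of cells with knockdown of GOMAFU and 3 control libraries, with the replicate numbers 2, 3 and 4 in both groups. GOMAFU is a long non-coding RNA that stays in the nucleus and appears in the table as MIAT, and the series title places it in a pathway with miR-137 in neuron differentiation. Per the labels' protocols, transfections used 100 pmol of small RNA and a lipid reagent. What the control cells received, the sequence used for the knockdown and whether replicates were separate cultures were not given in the sources used here, so p-values measure the spread between these libraries, which may be technical.

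Notch receptors are cell-surface proteins that are cut when a ligand on a neighbouring cell pulls on them. The freed intracellular part enters the nucleus, joins the DNA-binding protein RBPJ and a MAML coactivator, and switches on HES and HEY genes. HES1 and HEY1 are repressors that hold back proneural factors, whereas HES6 lies downstream of proneural factors and opposes HES1. In the developing nervous system this keeps progenitors from becoming neurons too early, and in neuroblastoma Notch activity has been linked to the mesenchymal cell state.

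Values per library are listed below in the order of replicates 2, 3 and 4 within each group. MIAT was measured at 1.27, 1.32 and 3.21 FPKM in knockdown libraries, against 5.38, 5.96 and 8.57 FPKM in control libraries. The groups did not overlap (exact two-sided permutation test, p = 0.1, which is the minimum for 3 libraries against 3). FPKM, a fragment count divided by gene length and library size, summed to between 579365 and 637153 per library. Of the adrenergic neuroblastoma genes, HAND2 averaged 553 FPKM in knockdown and 541 FPKM in control libraries and PHOX2A 401 and 417 FPKM, whereas TH, the rate-limiting enzyme of catecholamine synthesis, stayed between 0.041 and 0.087 FPKM. Of 12 Schwann cell and glial markers only PMP22, and of 12 endothelial and immune markers only CD14, reached a mean of 1 FPKM. Knockdown replicate 4 stood apart: its log2 values correlated with the other 5 libraries at 0.940 to 0.956, while each of those 5 reached 0.990 to 0.997 with at least 1 other library. The summed level of 25 type I interferon response genes was 548, 85.6 and 12388 FPKM in knockdown libraries, against 52.4, 53.5 and 46.1 FPKM in control libraries. Control replicate 4 was set apart from the rest by the second principal component, which held 14.5% of the variance. The 6 tested Notch genes are therefore given with all 6 libraries and without those numbered 4.

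The 9 genes ran from 0.0050 FPKM for NOTCH1 to 375 FPKM for DLK1. FPKM is scaled by gene length, so levels can be set side by side. In knockdown libraries the order of mean levels was DLK1, HES6, DLL3, NOTCH2, HEY1, HES1, NOTCH3, JAG1 and NOTCH1, and the order in control libraries was the same. In both groups the range of DLK1 lay clear of that of HES6, the range of HES1 clear of that of NOTCH3, and that of NOTCH3 clear of that of JAG1. HES6 and DLL3, and NOTCH2 and HEY1, overlapped in both groups. DLL3 and NOTCH2, HEY1 and HES1, and JAG1 and NOTCH1 overlapped in the knockdown libraries but not in the control libraries. Testing was limited to genes averaging 1 FPKM or more across all libraries, which 6 of the 9 did and NOTCH1, NOTCH3 and JAG1 did not.

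**Figure D1:**
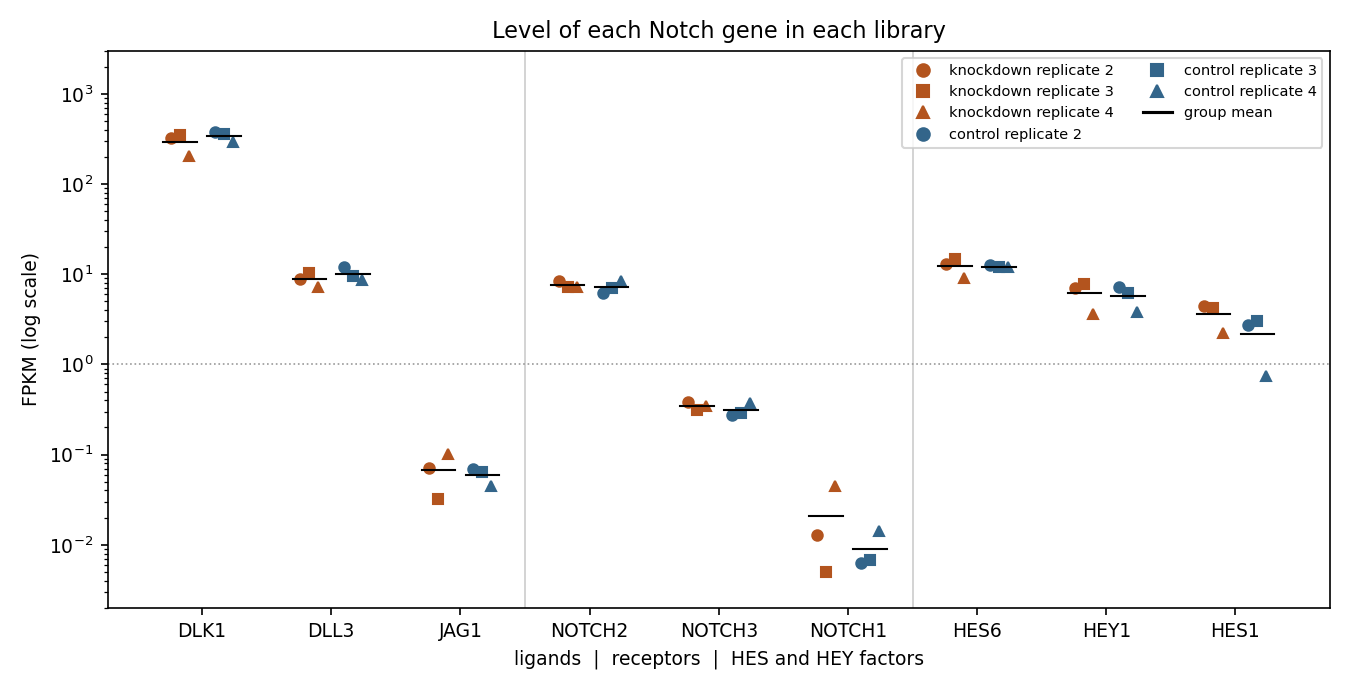
Level of each of the 9 Notch genes in FPKM (log axis) in 3 knockdown and 3 control libraries, with 1 symbol per library and a black bar for the group mean. DLK1 lies above 200 FPKM in every library, 5 genes lie mostly between 1 and 15 FPKM, and NOTCH3, JAG1 and NOTCH1 lie below the dotted line at 1 FPKM.

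No Notch gene passed the test between knockdown and control libraries. By limma on log2(FPKM + 1), with Benjamini-Hochberg adjustment over all 12164 genes kept, 0 of the 6 tested Notch genes passed an adjusted p of 0.05, and 0% of all genes did. At an unadjusted p under 0.05 there were also 0 of 6 Notch genes, against 2.16% of all genes (263; 0.97% higher and 1.19% lower). The groups overlapped for all 6, where 8.36% of all genes had groups that did not overlap (4.01% higher and 4.35% lower). Of the 6, 3 were fitted above 0, beside 46.7% of all genes. The median fitted log2 difference of the 6 was 0.03, and that of all genes tested was -0.01. With 1 or both of the libraries numbered 4 left out, the median of the 6 lay between -0.09 and 0.15. MIAT, the targeted transcript, did not pass in this fit either. Its log2 difference was -1.42 (SE 0.27, unadjusted p = 0.00125, adjusted p = 0.9998, limma). An adjusted p above the threshold does not show that levels were equal, so the 95% confidence interval for each tested Notch gene is given below.

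Among the receptors, NOTCH2 was the main one in these cells. This receptor, at chromosome 1 from 119911553 to 120069626 on the minus strand (GRCh38), stood at 8.31, 7.21 and 7.21 FPKM in knockdown libraries, against 6.16, 7.08 and 8.43 FPKM in control libraries. The lowest and the highest of the 6 values were both controls. The means were 7.58 ± 0.63 FPKM in knockdown and 7.22 ± 1.14 FPKM in control libraries (SD, n = 3 each), a log2 difference of 0.07 (SE 0.12, 95% interval -0.22 to 0.35, adjusted p = 0.9998, limma). It was 0.10 (SE 0.13) without knockdown replicate 4, 0.17 (SE 0.11) without control replicate 4 and 0.20 (SE 0.10, unadjusted p = 0.0862, adjusted p = 0.798, limma) without both. Of the summed level of the 4 Notch receptors, NOTCH2 made up 88.3%, 88.8% and 85.2% in knockdown libraries, against 88.0%, 87.9% and 87.3% in control libraries. Knockdown replicates 2 and 3 had the highest shares and knockdown replicate 4 the lowest, so the groups overlapped. Reads of NOTCH2 could be split with its near-identical partial copies: 1.82% of the 100-base windows of its longest coding transcript also occur in transcripts of other genes, NOTCH2NLA among them, while the other 8 genes had 0% shared.

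NOTCH3 and NOTCH1 were far lower. NOTCH3, at chromosome 19 from 15159038 to 15200981 on the minus strand and known mainly from vascular smooth muscle, was at 0.38, 0.31 and 0.35 FPKM in knockdown libraries, against 0.27, 0.29 and 0.37 FPKM in control libraries. The control range reached into the knockdown range through replicate 4. NOTCH1, the best studied receptor of neural progenitors, lies on the minus strand of chromosome 9, from 136494433 to 136545786. It was at 0.013, 0.0050 and 0.045 FPKM in knockdown libraries, against 0.0062, 0.0068 and 0.014 FPKM in control libraries. Once multiplied by relative depth, the 6 values of a low gene are whole multiples of 1 step (each within 0.1 of a whole number). The number of steps is then proportional to the fragments counted and is not corrected for depth. By this measure NOTCH1 stood at 2, 1 and 7 steps in knockdown libraries and at 1, 1 and 2 steps in control libraries. NOTCH1 was thus at 1 or 2 steps in 5 libraries, and no difference was detectable at this depth. In the same way NOTCH3 stood at 52, 54 and 47 steps in knockdown libraries and at 38, 37 and 46 steps in control libraries. Knockdown replicate 3 was the deepest library, at 1.36 times control replicate 3. The NOTCH3 groups did not overlap in steps but did in FPKM, which is corrected for library size. Without the filter, the log2 difference of NOTCH3 was 0.04 (SE 0.05) and that of NOTCH1 0.02 (SE 0.02), on a scale that compresses such low values.

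Among the ligands, DLK1 and DLL3 were expressed and JAG1 was nearly absent. DLK1, an imprinted gene for a transmembrane protein that resembles the Delta ligands but lacks their receptor-binding DSL domain, is a marker of chromaffin and immature sympathetic cells. It lies on the plus strand of chromosome 14, from 100725705 to 100738224. DLK1 was at 322, 351 and 202 FPKM in knockdown libraries, against 375, 355 and 291 FPKM in control libraries. The library at 202 FPKM is the one with the highest interferon gene sum, and the other knockdown values lay inside the control range. The means were 292 ± 79.0 and 340 ± 44.0 FPKM in knockdown and control libraries (SD, n = 3 each), a log2 difference of -0.25 (SE 0.21, 95% interval -0.76 to 0.26, adjusted p = 0.9998, limma). Without knockdown replicate 4 the difference was -0.0083 (SE 0.12), and without both libraries numbered 4 it was -0.12 (SE 0.07). Without control replicate 4 it was -0.36 (SE 0.24). The interferon gene sum was also above the controls in knockdown replicates 2 and 3, and its part in the DLK1 values was not tested. In bulk RNA, fewer expressing cells and less RNA per cell cannot be told apart.

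DLL3, a divergent Delta ligand that is held inside the cell and dampens Notch signalling in the cell that makes it, is a therapeutic target in neuroendocrine tumours. It lies on the plus strand of chromosome 19, from 39498895 to 39508481. DLL3 was at 8.83, 10.4 and 7.22 FPKM in knockdown libraries, against 12.1, 9.63 and 8.53 FPKM in control libraries. The highest value was a control and the lowest a knockdown library, with the others interleaved. The log2 difference was -0.18 (SE 0.16, 95% interval -0.56 to 0.20, adjusted p = 0.9998, limma). It was -0.05 (SE 0.14) without knockdown replicate 4, -0.28 (SE 0.17) without control replicate 4 and -0.16 (SE 0.12) without both. DLL3 made up 93.7%, 96.0% and 90.2% of the summed level of the 5 DSL ligands (DLL1, DLL3, DLL4, JAG1 and JAG2) in knockdown libraries, against 94.9%, 93.9% and 94.9% in control libraries.

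JAG1, a ligand that activates Notch receptors on neighbouring cells, lies on the minus strand of chromosome 20, from 10637684 to 10673999. It was at 0.070, 0.032 and 0.10 FPKM in knockdown libraries, against 0.069, 0.065 and 0.044 FPKM in control libraries. These are 7, 4 and 10 steps in knockdown and 7, 6 and 4 steps in control libraries, so no difference was detectable at this depth. The other activating ligands were also low. JAG2 averaged 0.37 ± 0.04 FPKM in knockdown and 0.45 ± 0.06 FPKM in control libraries, DLL4 0.056 ± 0.018 and 0.032 ± 0.013 FPKM, and DLL1 0.11 ± 0.15 and 0.038 ± 0.037 FPKM (SD, n = 3 each). JAG1 and NOTCH1 each overlap an antisense transcript and HES6 a transcript on the other strand. Whether strand was kept is not given in the sources used here, so reads of such partners cannot be told apart from theirs.

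HES1 showed the largest fitted difference of the 6 tested genes with all libraries in, but not without control replicate 4, where it was smaller in size than those of DLK1 and DLL3. This repressor, the best known target of Notch, occupies chromosome 3 from 194136145 to 194138732 (plus strand). The bases before its start site are shown because they hold the motif of RBPJ, through which Notch reaches this gene. The sequence is from RefSeq (GRCh38.p14), chr3:194135898-194136144 on the plus strand, 250 to 4 bases before the start site, with matches to the RBPJ core TGGGAA in capitals.
HES1: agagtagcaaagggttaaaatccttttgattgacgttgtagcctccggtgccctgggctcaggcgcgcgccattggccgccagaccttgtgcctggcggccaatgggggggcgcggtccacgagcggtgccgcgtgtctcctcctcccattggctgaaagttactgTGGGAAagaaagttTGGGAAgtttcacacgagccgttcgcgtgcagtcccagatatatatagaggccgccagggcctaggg
The core occurs 2 times, beginning 84 and 70 bases before the start site. Searched on both strands, at least 2 copies were found in the 250 bases before 2.9% of 35116 RefSeq start sites and at least 1 copy before 20.8%. Of the 9 genes, 6 had an entry in the RefSeq table used, and of these only HES1 held the core. DLL3, DLK1 and HEY1 had no entry and were not searched. The N box CACNAG, a motif of HES proteins themselves, occurred 3 times before HES1. It occurred at least 1 time before 32% of all start sites and at least 2 times before 6.32%, and a share for 3 was not counted. These matches are descriptions of the sequence and not evidence of binding here.

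HES1 was at 4.41, 4.21 and 2.21 FPKM in knockdown libraries, against 2.74, 3.06 and 0.74 FPKM in control libraries. Knockdown replicates 2 and 3 lay above every control, knockdown replicate 4 lay below control replicates 2 and 3, and control replicate 4 was the lowest of all. In whole steps these were 93, 112 and 46 in knockdown and 59, 60 and 14 in control libraries, so the lowest value rested on few fragments. Set against control replicate 3, the library depth read from steps of low genes was 1.07, 1.36 and 1.06 for knockdown libraries, against 1.10 and 0.972 for control replicates 2 and 4. The means were 3.61 ± 1.22 FPKM in knockdown and 2.18 ± 1.26 FPKM in control libraries (SD, n = 3 each). The knockdown mean was 1.66 times the control mean, with overlapping groups. The log2 difference was 0.59 (SE 0.36, 95% interval -0.26 to 1.45, unadjusted p = 0.145, adjusted p = 0.9998, limma).

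How large the HES1 difference was depended on the libraries numbered 4. Without knockdown replicate 4 it was 0.83 (SE 0.34, unadjusted p = 0.0443, adjusted p = 0.959, limma), and without control replicate 4 it was 0.20 (SE 0.25, unadjusted p = 0.442, adjusted p = 0.924, limma). Without both it was 0.45 (SE 0.10, unadjusted p = 0.00268, adjusted p = 0.714, limma), with both knockdown values above both control values. It stayed above 0 in the 16 alternatives that gave a value and did not pass the threshold in any of them, with adjusted p from 0.167 to 1.

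HEY1, a related repressor and direct Notch target on chromosome 8 from 79764010 to 79767863 on the minus strand, was lowest in both libraries numbered 4. It was at 7.03, 7.84 and 3.62 FPKM in knockdown libraries, against 7.19, 6.19 and 3.83 FPKM in control libraries. The values of both groups interleaved. The log2 difference was 0.07 (SE 0.29, 95% interval -0.62 to 0.76, adjusted p = 0.9998, limma). It was 0.36 (SE 0.21) without knockdown replicate 4, -0.16 (SE 0.29) without control replicate 4 and 0.13 (SE 0.10) without both.

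HES6, which promotes neuronal differentiation and opposes HES1, was the most abundant of the 3 factors. It lies on the minus strand of chromosome 2, from 238238267 to 238240662. HES6 was at 13.1, 14.6 and 9.04 FPKM in knockdown libraries, against 12.6, 11.96 and 11.9 FPKM in control libraries. The controls averaged 12.1 ± 0.37 FPKM (SD, n = 3), knockdown replicates 2 and 3 lay above them and knockdown replicate 4 below them. The log2 difference was -0.01 (SE 0.16, 95% interval -0.39 to 0.37, adjusted p = 0.9998, limma). It was 0.18 (SE 0.08, unadjusted p = 0.0634, adjusted p = 0.959) without knockdown replicate 4 and 0.16 (SE 0.08, unadjusted p = 0.0733, adjusted p = 0.796) without both libraries numbered 4, and it also turned above 0, to 0.01 (SE 0.20), without control replicate 2. Within a library, HES6 was 2.97, 3.47 and 4.09 times the level of HES1 in knockdown libraries, against 4.58, 3.90 and 16.2 times in control libraries. The ratio of 16.2 is that of the library with the least HES1.

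**Figure D2:**
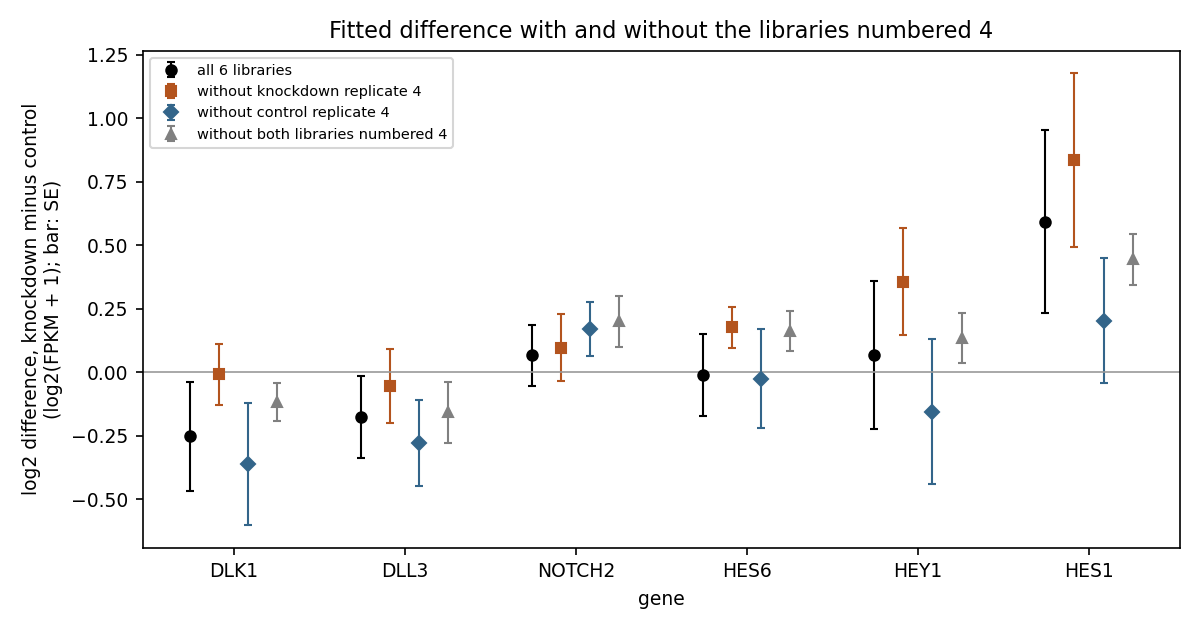
Fitted log2 difference (knockdown minus control, on log2(FPKM + 1)) of the 6 tested Notch genes with all 6 libraries, without knockdown replicate 4, without control replicate 4 and without both, with bars for the SE. HES1 lies above 0 in all 4 settings, from 0.20 to 0.83, while HES6 and HEY1 lie on either side of 0.

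Several of the tested genes shared their lowest library. DLK1, DLL3, HES6 and HEY1 had their lowest value in knockdown replicate 4, and 31.4% of all genes kept did so too. Relative to the control mean, DLK1 was 0.74, HEY1 0.51, DLL3 0.42 and HES6 0.39 lower there on the log2(FPKM + 1) scale, NOTCH2 was 0.01 higher and HES1 0.11 higher. In control replicate 4, HES1 was 0.78, HEY1 0.45, DLK1 0.22 and DLL3 0.21 lower than the control mean, and NOTCH2 was 0.21 higher. Over the 6 libraries DLL3 and DLK1 correlated at r = 0.89, HES1 and HEY1 at r = 0.81, HES6 and HEY1 at r = 0.83, and NOTCH2 with DLL3 at r = -0.62. These describe 6 libraries, of which 2 stood apart from the rest, and carry no test.

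**Figure D3:**
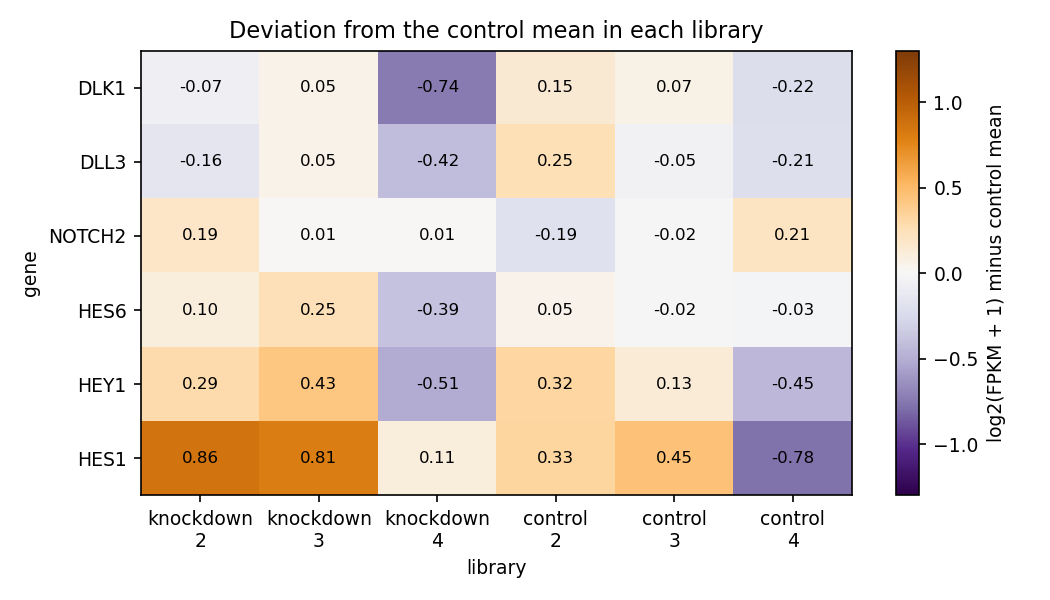
Deviation of each tested Notch gene from the mean of the control libraries, in log2(FPKM + 1), for each library, with knockdown libraries on the left and orange for higher values. Knockdown replicate 4 is lowest for DLK1 (-0.74) and HEY1 (-0.51), control replicate 4 is lowest for HES1 (-0.78), and knockdown replicates 2 and 3 are highest for HES1 (0.86 and 0.81).

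The gene with the pattern most like each was found by Pearson's r of log2 values over the 6 libraries among all genes kept. These were PAFAH1B1 for NOTCH2 (r = 0.996), JTB for DLL3 (0.998), SLC25A5 for DLK1 (0.998), APLNR for HES1 (0.994), CLCN2 for HES6 (0.998) and SH2D2A for HEY1 (0.9996). With 6 points such values are common, and r was above 0.95 for 32 genes with NOTCH2, 84 with HES1 and 549 with DLK1. APLNR, a receptor for the peptide apelin, was at 2.19, 2.10 and 1.22 FPKM in knockdown libraries, against 1.42, 1.40 and 0.39 FPKM in control libraries, which is the order of HES1 in its lowest and highest libraries. Among pathway genes the closest were AAK1 to HES1 (0.96), HES7 to DLL3 (0.97) and TMED2 to HEY1 (0.99).

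Most other pathway genes were kept for testing, and their groups were apart about as often as those of all genes. Of 133 further genes listed for the pathway in 9 lists, 102 were kept, 52 with a fitted difference above 0 and 50 below it. By limma 0 passed the threshold, and 0 had an unadjusted p under 0.05. The groups did not overlap for 8.82% of them (5 higher and 4 lower), beside 8.36% of all genes, and their median log2 difference was 0.01 beside -0.01 for all genes.

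**Figure D4:**
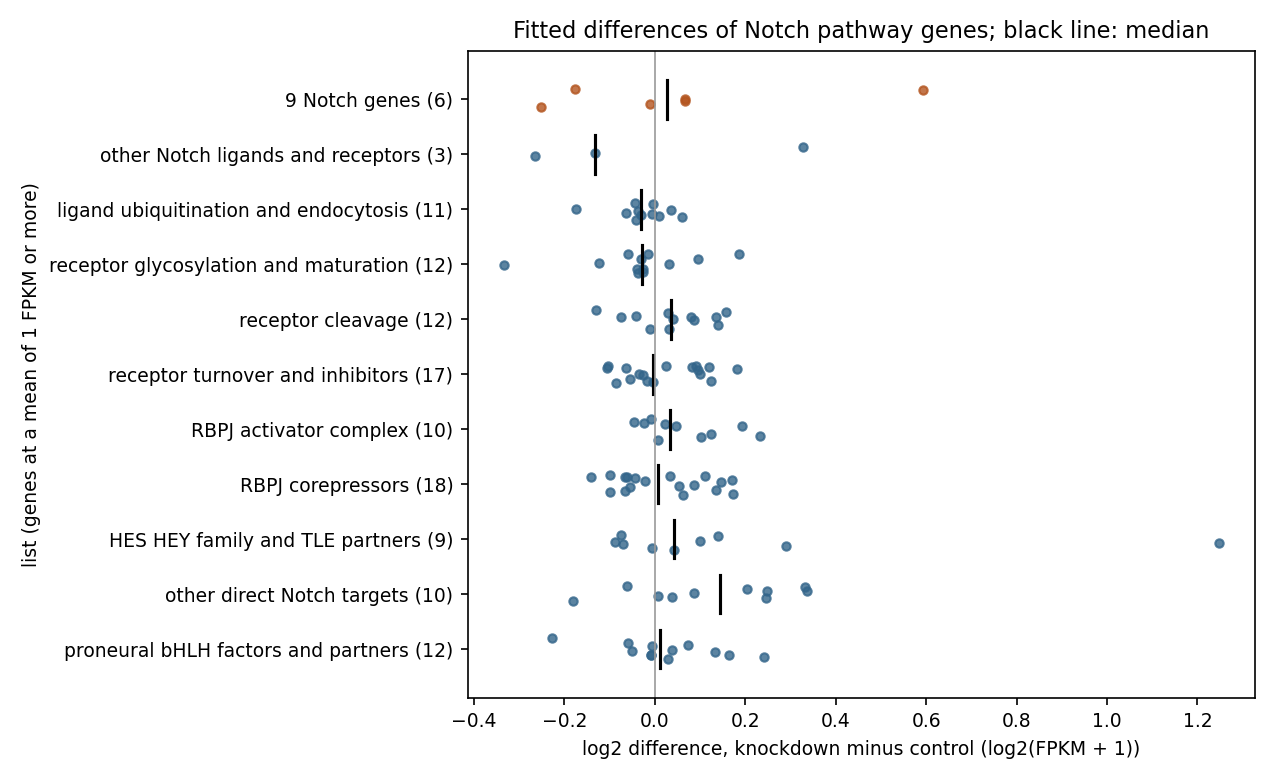
Fitted log2 difference (knockdown minus control) of each kept gene in the Notch lists and in the list of proneural factors, with the number of genes in brackets and a black line for the median. Medians lie between -0.13 and 0.15, HES1 is the point at 0.59 in the top row and HES4 the point at 1.25.

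Among other ligands and receptors, the non-canonical ligand CNTN1 averaged 51.5 ± 3.80 FPKM in knockdown and 63.5 ± 18.5 FPKM in control libraries, and the matrix protein MFAP2 45.6 ± 11.9 and 49.4 ± 7.37 FPKM (SD, n = 3 each). DLK2, a homologue of DLK1, had a log2 difference of 0.33 (SE 0.19), and 0.15 (SE 0.15) without both libraries numbered 4. That of CNTN1 was -0.26 (SE 0.19), and -0.09 (SE 0.07) without them. Only these 3 of 12 were kept. NOTCH4, below the filter, averaged 0.72 ± 0.14 FPKM in knockdown and 0.69 ± 0.14 FPKM in control libraries.

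Of the 11 genes for ligand ubiquitination and endocytosis, 3 had a fitted difference above 0 and 8 below it (median -0.03). The ubiquitin ligase NEURL1 differed by -0.17 (SE 0.11) and dynamin 2 (DNM2) by 0.06 (SE 0.08). The endocytic adaptor EPN1 averaged 122 FPKM in both groups and clathrin heavy chain (CLTC) 55.3 FPKM in knockdown and 56.5 FPKM in control libraries. Of the 12 kept genes for receptor glycosylation and maturation, LFNG, the fringe enzyme that modifies receptors so that they favour Delta over Jagged ligands, had the smallest p. LFNG was at 2.54, 2.34 and 1.63 FPKM in knockdown libraries, against 2.71, 3.21 and 2.99 FPKM in control libraries. The groups did not overlap, but the log2 difference of -0.33 (SE 0.14) did not pass the threshold (unadjusted p = 0.0509, adjusted p = 0.9998, limma), and it was -0.20 (SE 0.12) without both libraries numbered 4. GXYLT1, a xylosyltransferase that extends sugars on the receptor, was higher without overlap (0.19, SE 0.09) and did not pass either. The transport proteins TMED2 and TMED10 averaged 123 and 55.4 FPKM in knockdown and 120 and 56.7 FPKM in control libraries.

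Of 12 receptor cleavage genes, 8 lay above 0 and 4 below (median 0.04). ADAM10, the protease of the first cut after ligand binding, averaged 20.0 ± 0.75 FPKM in knockdown and 18.1 ± 1.12 FPKM in control libraries, without overlap (log2 difference 0.13, SE 0.08, adjusted p = 0.9998, limma). TSPAN33, a tetraspanin partner of ADAM10, was at 0.14 (SE 0.13), and at 0.03 (SE 0.12) without both libraries numbered 4. The gamma-secretase subunits APH1A and PSENEN averaged 128 and 45.1 FPKM in knockdown and 124 and 45.6 FPKM in control libraries. Of 17 genes of receptor turnover and inhibition, 8 were above 0 and 9 below. The log2 differences of the ubiquitin ligases NEDD4 and WWP2 were 0.18 (SE 0.11) and 0.12 (SE 0.09), and 0.12 (SE 0.11) and 0.05 (SE 0.08) without both libraries numbered 4. DTX3 and cyclin C (CCNC) averaged 39.9 and 37.7 FPKM in knockdown and 40.3 and 38.4 FPKM in control libraries. NRARP, a Notch target that feeds back on the pathway and was chosen after its values were seen, was at 12.3, 12.2 and 8.64 FPKM in knockdown libraries, against 9.89, 12.4 and 9.92 FPKM in control libraries.

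In the RBPJ activator complex 7 of 10 kept genes were fitted above 0, with a median of 0.03. MAML1, the coactivator that bridges the Notch intracellular part to histone acetylation, averaged 23.3 ± 1.85 FPKM in knockdown and 20.3 ± 1.97 FPKM in control libraries (log2 difference 0.19, SE 0.10, adjusted p = 0.9998, limma). KAT2A, an acetyltransferase, stood at 42.5 FPKM in knockdown replicate 4 and between 24.7 and 27.2 FPKM in all other libraries, and SNW1, a nuclear cofactor, averaged 61.7 FPKM in knockdown and 59.5 FPKM in control libraries. RBPJ itself, chosen for its role after its values were seen, averaged 24.5 ± 1.41 FPKM in knockdown and 24.4 ± 2.29 FPKM in control libraries (SD, n = 3 each). Of 18 genes listed as RBPJ corepressors, 9 were above 0 and 9 below. The list also holds SHARPIN (-0.10) and CCBL1 (-0.07), which are not established corepressors of RBPJ. Both are counted below 0 here and in the pathway totals above. The histone deacetylase HDAC2 differed by -0.14 (SE 0.08) and RBBP8 by 0.14 (SE 0.08), both without overlap and neither past the threshold, and they were at -0.05 (SE 0.06) and 0.06 (SE 0.07) without both libraries numbered 4. The corepressor CTBP1 and the RBPJ-binding protein gene FHL1 averaged 93.6 and 81.0 FPKM in knockdown and 91.4 and 83.6 FPKM in control libraries.

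In the HES and HEY family, HES4 was kept for testing only through knockdown replicate 4, so its separation from the controls supports nothing by itself. HES4 was at 0.31, 0.064 and 8.63 FPKM in knockdown libraries and was listed at 0 in all 3 control libraries. It is 1 of the 5 pathway genes counted above as higher without overlap, and without knockdown replicate 4 it no longer reached the filter. HES4 lies on the minus strand of chromosome 1, from 998962 to 1000172, 966 bases by that annotation (GENCODE) from the start of ISG15, an interferon-induced gene on the plus strand. ISG15 was at 48.6, 2.40 and 1622 FPKM in knockdown libraries, and at 0, 0.15 and 0 FPKM in control libraries, so both genes had the same order in the knockdown libraries. The part of ISG15 transcription in the HES4 values was not tested. The site before HES4 is shown beside that of HES1 because they share a stretch around the RBPJ core. It is from RefSeq (GRCh38.p14), chr1:1000156-1000185 on the minus strand, 88 to 59 bases before RefSeq's start site, with the core in capitals. RefSeq's start lies inside the GENCODE span given above, so these bases lie partly within that span.
HES4: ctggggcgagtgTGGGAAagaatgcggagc
The longest stretch common to the 250 bases before HES1 and HES4 is TGTGGGAAAGAA, 12 bases that begin 86 bases before the start of HES1 and 78 before that of HES4. It was found before 6 of 35116 start sites, those of HES1 and HES4 among them. The stretch was picked because these 2 genes share it, so its rarity supports nothing by itself. BHLHE40, a related repressor, was at 0.29 (SE 0.24), at 0.56 (SE 0.15) without knockdown replicate 4, at 0.18 (SE 0.27) without control replicate 4 and at 0.13 (SE 0.25) without knockdown replicate 2. The TLE family genes AES and TLE4 averaged 230 and 22.7 FPKM in knockdown and 231 and 20.9 FPKM in control libraries. HES2, HES5 and HELT were listed at 0 in all 6 libraries.

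Of 10 kept genes among other reported Notch targets, 8 lay above 0 and 2 below (median 0.15, beside -0.01 for all genes). The median was 0.04 with no filter, 0.04 with library weights, 0.09 at a mean of 5 FPKM or more and 0.08 without both libraries numbered 4, and reached 0.25 without control replicate 2. SNAI2, a mesenchymal repressor, differed by 0.25 (SE 0.12, unadjusted p = 0.0834) and ID3, an inhibitor of proneural factors that is also a target of BMP signalling, by 0.33 (SE 0.18, unadjusted p = 0.106), both at adjusted p = 0.9998 by limma. Without control replicate 4 ID3 was at 0.12 (SE 0.09), and without both libraries numbered 4 SNAI2 was at 0.09 (SE 0.10) and ID3 at 0.17 (SE 0.07). Cyclin D1 (CCND1) averaged 263 ± 33.2 FPKM in knockdown and 254 ± 5.13 FPKM in control libraries, and GATA3 163 ± 34.2 and 169 ± 24.9 FPKM (SD, n = 3 each). The groups of 1 of the 10 did not overlap, beside 8.36% of all genes. This was CD44, chosen after its values were seen. It was lower, at 0.76, 0.89 and 1.01 FPKM in knockdown libraries, against 1.11, 1.21 and 1.09 FPKM in control libraries. Its log2 difference of -0.18 (SE 0.13) did not pass the threshold (adjusted p = 0.9998, limma). Many of these genes are also controlled by other pathways. Among 12 kept proneural factors and partners, 6 were above 0 and 6 below, with a median of 0.01. ID1 was at 0.24 (SE 0.13), and at 0.10 (SE 0.09) without control replicate 4, and HAND2 and ID2 averaged 553 and 74.7 FPKM in knockdown and 541 and 67.6 FPKM in control libraries.

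None of the genes of the neuroblastoma cell states tied to Notch passed the test. Of 20 mesenchymal genes, a list that holds NOTCH2 and HES1, only 8 were kept, 5 above 0 and 3 below (median 0.06). Of these 8, only CD44, given above, had groups that did not overlap, and it was lower in knockdown libraries. The 2 highest were vimentin (VIM), at 237 ± 79.7 FPKM in knockdown and 261 ± 58.7 FPKM in control libraries, and TWIST1, a transcription factor, at 170 ± 25.0 and 163 ± 10.8 FPKM. Among those not kept, PRRX1 and MEOX1 were listed at 0 in all 6 libraries. FN1 averaged 0.62 FPKM in knockdown and 0.67 FPKM in control libraries. Of 17 kept adrenergic genes, 6 were above 0 and 11 below (median -0.06). CHGA and STMN2 averaged 1344 and 833 FPKM in knockdown and 1707 and 963 FPKM in control libraries, both without overlap; the unadjusted p was 0.00591 and 0.0659 and the adjusted p 0.9998 for both (limma).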

How the data were processed

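The tools named in the submitters' processing notes are TopHat2 and Cuffdiff, with build hg38. Their versions, the annotation and any filter were not given in the sources used here. The deposited values are FPKM, 1 column per library. Column names were matched to sample titles. Count models were not applied, since FPKM is a normalized unit. Genes averaging 1 FPKM or more (12164) were kept, and log2(FPKM + 1) was compared with limma 3.58.1 in R 4.3.3 (intensity trend, two-sided, knockdown minus control, no covariate), with Benjamini-Hochberg adjustment over all kept genes and a threshold of 0.05. The pseudocount of 1 understates changes of low genes. The fit was tested on simulated data, with noise set to the spread of the control libraries in both groups. That setting holds no library like knockdown replicate 4, so it does not show what the fit could detect here. Locations, overlaps and transcripts are from GENCODE release 29 (GRCh38, the same assembly as hg38), and bases before start sites from RefSeq (GRCh38.p14). Of 262 list entries, 260 matched by symbol and 2 by another symbol.

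The genes and lists were chosen with earlier results of these data known. From each list the 2 genes with the smallest p and the 2 with the highest mean were named; some genes are not reported here. The 17 alternatives were other pseudocounts, filters, scalings and eBayes settings, a block for the replicate number, weighting of libraries, and libraries left out. Depth in reads is unknown; relative depth came from steps between low values.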

Additional observations from a re-analysis of the deposited data

How the results depend on the processing

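In all 17 alternatives 0 of the Notch genes tested there passed the threshold (9 tested with no filter, 5 at a mean of at least 5 FPKM and 6 in the others), and over all genes the count was 0 except with library weights (9 higher and 13 lower; weights of 7.98 for control replicate 3 and 3.34 for knockdown replicate 2, and at most 0.915 for the others, estimated without reaching the convergence tolerance) and without both libraries numbered 4 (1 lower). DLL3 and DLK1 stayed below 0 in all 17, from -0.29 to -0.05 and from -0.41 to -0.0083, and HES1 above 0 in 16, from 0.20 to 0.91; it gave no value at a mean of at least 5 FPKM. HES6 was 0.0053 with upper-quartile scaling, 0.13 with library weights and 0.16 without both libraries numbered 4. With each library left out in turn the lowest and highest log2 differences were -0.14 and 0.18 for HES6, -0.16 and 0.36 for HEY1, -0.028 and 0.17 for NOTCH2, and -0.0023 and 0.12 for DNM2, while the counts past the threshold ran from 0 to 0. DNM2 was -0.066 with library weights and -0.025 without both libraries numbered 4, and KAT2A -0.031 and -0.016. The adjusted p of MIAT fell below the threshold with library weights (0.00299) and without both libraries numbered 4 (0.0118). The cause of the reversals was not tested. Of 204 list medians under alternatives, 36 moved by more than the control SD.

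With the replicate number as a block, 0 genes passed the threshold. A block cannot change the fitted difference in this balanced design, so HES1 was again at 0.59 (SE 0.13, unadjusted p = 0.00439, adjusted p = 0.894, limma). Deviations from the group means correlated at 0.09, 0.17 and 0.32 between libraries numbered 2, 3 and 4. Knockdown replicate 2 correlated best with control replicate 3 (0.21), and knockdown replicate 3 with control replicate 2 (0.32). Those numbered 4 correlated best with each other, and at -0.34 to -0.19 with libraries numbered 2 and 3 of the other group. Because the numbers 2 and 3 did not match best, the numbers were not taken to pair the libraries. Depth limits NOTCH1 and JAG1, at 1 to 7 and 4 to 10 steps.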

Other observations

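DLK1 lies in an imprinted region with MEG3, a long non-coding RNA made from the other parental copy, and RTL1; both were looked at after the values of DLK1 were seen. RTL1 was at 4.19, 4.07 and 1.24 FPKM in knockdown libraries (replicates 2, 3 and 4), against 4.62, 5.30 and 2.76 FPKM in control libraries, so its lowest value was in the same library as that of DLK1. MEG3 was at 169, 189 and 150 FPKM in knockdown libraries, against 197, 197 and 238 FPKM in control libraries, and its groups did not overlap. The log2 difference of MEG3 was -0.32 (SE 0.12, unadjusted p = 0.0305, adjusted p = 0.9998, limma), which did not pass the threshold. RTL1 overlaps non-coding transcripts on the other strand, so its reads and theirs cannot be told apart if strand was not kept.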
